A study of Mus musculus with 15 samples.

Results

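Keratins, small proline-rich proteins, Tmprss11 proteases and other genes of stratified (squamous) epithelium were followed in tumours grown from LLC1, a mouse Lewis lung carcinoma line, with or without a knockdown of LKB1. The genes were taken by name from the deposited table of counts: every keratin (Krt), Sprr, Tmprss11 and late cornified envelope (Lce) gene, with involucrin (Ivl), loricrin (Lor), Trp63, Dsg3, Dsc3 and Pkp1. Such a name was carried by 105 of the 53465 genes listed there, 37 of them with no count in any library and 30 with 1 to 9 counts. The 38 genes with 10 or more counts over 12 libraries are described here. Sprr2f, with 10 counts, was just inside that limit, and Krt6b, with 8, just outside it. The limit used the summed counts and no comparison between groups.

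All groups were tumours grown from LLC1 cells, and 5 groups of 3 libraries were made. KD tumours came from LLC1-sgLkb1, with the genotype label LKB1 knockdown, and WT tumours from LLC1. Tumours had an immune checkpoint inhibitor (ICI), radiation together with it (RI) or, in KD alone, radiation (RT). The groups were thus KD ICI, KD RI and KD RT, with WT ICI and WT RI from LLC1, and no untreated tumour is among them. The labels do not name the inhibitor, the radiation dose, the host animals or how many clones each line holds. Nothing in them says that libraries of a group came from separate animals, so p-values measure the spread between these libraries. ICI and RI libraries have counts, and RT libraries have only FPKM in a table of their own.

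Stratified epithelia such as skin and the oral lining build a basal layer that makes Krt5 and Krt14 under the transcription factor Trp63. Cells leaving it make other keratins and then a cornified envelope, a protein shell under the membrane that transglutaminases cross-link from loricrin, involucrin, Sprr and Lce proteins. Keratins are filament proteins that work as pairs of a type I and a type II partner, and simple epithelia such as the lung lining use chiefly Krt8 with Krt18. Tmprss11 genes encode membrane-anchored serine proteases made mostly in stratified and airway epithelia. LKB1 is a kinase that activates AMPK and its relatives, and Stk11 is the gene that encodes it.

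Stk11 RNA was close in both genotypes. It stood at 115, 128 and 152 CPM (counts scaled to library size, with TMM factors) in KD ICI tumours, against 168, 152 and 171 CPM in WT ICI tumours. In KD RI tumours it was at 139, 111 and 127 CPM, against 140, 140 and 147 CPM in WT RI tumours. The KD libraries lay narrowly below the WT libraries under each treatment, and neither difference passed the test (adjusted p = 0.0556 under ICI and 0.304 under RI). A gene cut by a guide can still be transcribed, so these levels check the genotype label only in part.

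The 12 libraries held 17289313 to 23471917 counts, of which the 38 genes took 0.0535% to 0.0859%. Of the usual markers of a carcinoma cell, Krt8 was abundant in every library at 441 to 755 CPM, while Epcam was at 0 to 0.778 CPM and Cdh1 at 0.0520 to 1.35 CPM. Markers of hair follicle summed to 0.0905 to 1.24 CPM and those of lung epithelium to 0.0519 to 0.726 CPM. Those of mesothelium summed to 32.1 to 79.1 CPM, nearly all of it Bnc1 and Msln, with Wt1, Lrrn4, Upk3b and Upk1b each at 0 to 0.333 CPM at most. Markers of mammary gland summed to 1.84 to 7.54 CPM, nearly all of it Csn3. Adipocyte markers summed to 0.830 to 142 CPM, with the highest value in WT RI 3. The part of these tissues in the keratin levels was not tested. Skeletal muscle markers summed to 2.65 to 85.6 CPM in KD tumours and 1.92 to 913 CPM in WT tumours, with the high values in WT ICI 2 and WT RI 3. KD ICI 3, which carries the word CON in its description, stood apart from the other KD ICI libraries. With it 14 of all genes tested passed for RI against ICI in KD tumours, and without it 3324 did, so where it decided the call of a tested keratin or Sprr gene the value without it is given too. The descriptions also carry the names JIAN (KD ICI 1, KD RI 2, WT ICI 2 and the 3 WT RI libraries), TUI (KD ICI 2, WT ICI 1 and WT ICI 3) and SG793 (KD ICI 3, KD RI 1 and KD RI 3), whose meaning the sources used here do not give. Without SG793, or in JIAN alone, KD RI 2 is the only KD RI library, and values of KD RI there rest on it. KD ICI 1 and KD ICI 2 share the identifier H80, and whether they come from the same animal is not given. They differ beyond sampling noise and are counted as separate libraries in every n = 3. With their counts summed into 1 library, all of the 38 genes called for KD against WT passed again. Tmprss11a and Sprr2g were added under ICI and Tmprss11a under RI, and both entered that fit through KD libraries alone. In whole tumours, fewer cells of a type and less RNA per cell cannot be told apart.

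The label squamous held for part of the list. Sprr and Tmprss11 genes, and under ICI Krt20, were higher in KD tumours, but Krt5, Krt14, Lor, Ivl and the Lce genes gave few reads. No Lce gene reached 10 counts (15 of 21 had none), Ivl had 3 counts in all, and Trp63, the transcription factor of stratified epithelia, had 21. Under ICI 10 of the 38 genes were higher in KD than in WT tumours and 1 was lower, where 16.1% and 14.9% of the 16617 genes tested were. Under RI 8 were higher and 1 lower, where 9.18% and 12.1% of genes tested were. A gene was called at an adjusted p under 0.05 in edgeR's quasi-likelihood test, adjusted by Benjamini and Hochberg over all genes tested. Only 15 of the 38 were abundant enough to be tested, and a gene tested solely because KD libraries hold it had to differ, so these counts describe the list and are not set against the background as a test.

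**Figure D1:**
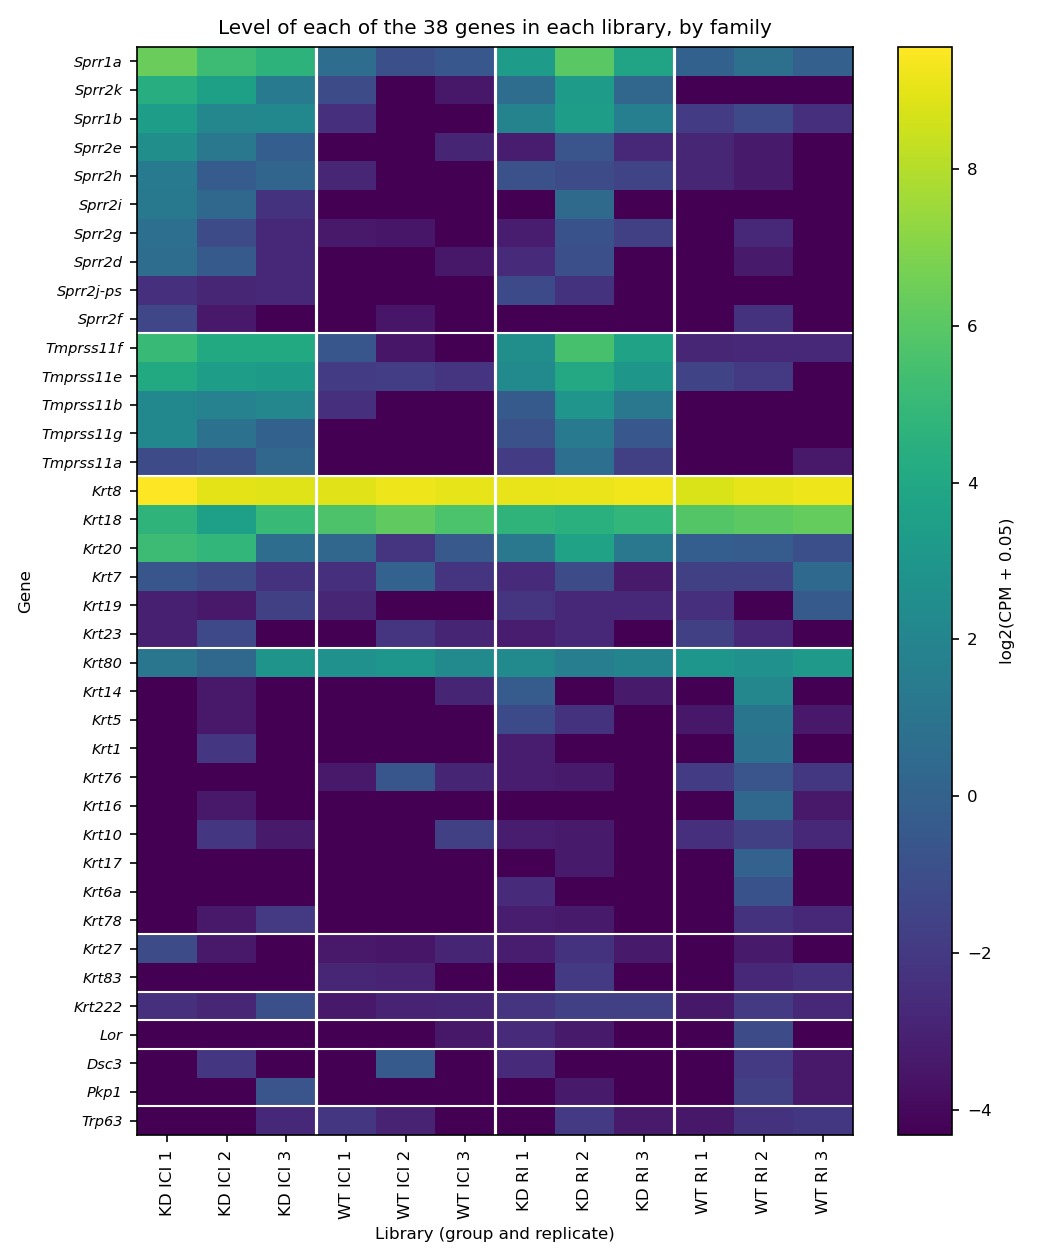
Level of each of the 38 genes (rows, grouped by family) in each of the 12 libraries (columns), as log2(CPM + 0.05). Sprr and Tmprss11 rows are brighter in the KD columns, Krt8 is bright in every column, and the keratins Krt14, Krt5 and Krt1 of stratified epithelium are above the darkest shades mainly in WT RI 2.

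Sprr genes encode small proline-rich proteins, precursors that are cross-linked into the cornified envelope. All 10 lie in a single block of chromosome 3, and their summed level was 128, 58.4 and 34.7 CPM in KD ICI tumours, against 2.20, 0.559 and 0.806 CPM in WT ICI tumours. The KD RI tumours had 16.5, 89.1 and 18.5 CPM, against 1.32, 2.49 and 1.05 CPM in WT RI tumours. Every KD library thus lay above every WT library, with a wide spread among the KD libraries. The 8 markers of skin between hair follicles summed to 15.1 to 23.2 CPM in KD and 5.47 to 8.95 CPM in WT tumours, nearly all of it Sbsn, with Flg2, Hrnr and Calml3 at 0 in every library. Their part in the Sprr levels was not tested.

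Sprr1a (chr3:92483952-92485895, minus strand, GRCm38 as in all positions here) made up most of that sum. It was at 83.4, 37.0 and 25.2 CPM in KD ICI tumours, against 1.51, 0.479 and 0.636 CPM in WT ICI tumours. Under RI the level was 10.2, 64.8 and 13.6 CPM in KD tumours, against 0.927, 1.71 and 0.904 CPM in WT tumours. The lowest KD library was above the highest WT library. Under ICI the level was 53.0-fold higher in KD (log2 fold change 5.80 ± 0.90 SE, adjusted p = 0.00140). Under RI it was 25.8-fold higher (4.65 ± 0.86, adjusted p = 0.00382), and without KD RI 2, the highest library, the log2 change was 3.34. Without KD ICI 1 that under ICI was 5.16.

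Sprr1b (chr3:92436809-92438789, minus strand), its neighbour of the same subfamily, was at 10.5, 4.21 and 4.42 CPM in KD ICI tumours, against 0.137, 0 and 0 CPM in WT ICI tumours. In KD RI tumours it was at 3.66, 10.8 and 3.12 CPM, against 0.221, 0.363 and 0.143 CPM in WT RI tumours. Here too the genotypes did not overlap. The 3 reads of the WT ICI group give a ratio of 139 with a counting interval from 47.2 to 678 (exact, 95%). Under ICI the test gave a log2 change of 7.01 ± 0.89 (adjusted p = 0.000270), and under RI one of 4.58 ± 0.72 (adjusted p = 0.000836). The change under RI was 3.79 without KD RI 2. That under ICI was 6.40 without WT ICI 2 and 9.98 without WT ICI 1, which left no WT ICI read.

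Among Sprr2 genes, Sprr2k (chr3:92432582-92433925, plus strand) was the most abundant. Its level was 19.7, 11.7 and 2.70 CPM in KD ICI tumours, against 0.412, 0 and 0.0424 CPM in WT ICI tumours. In KD RI tumours it was 1.5, 9.98 and 1.14 CPM, and no read was counted in WT RI tumours. The ratio under ICI was 75.4 (log2 6.24 ± 1.38, adjusted p = 0.0101), and under RI the level was at least 89.4-fold higher in KD, against a floor of 3 counts over the WT group (adjusted p = 0.0172). Without WT ICI 1, which holds most WT reads of Sprr2k, the fitted log2 change under ICI was 8.68, it was 5.58 with either WT ICI 2 or KD ICI 1 left out, and that under RI was 7.77 without KD RI 2. Both calls were lost when no filter on low counts was used (adjusted p = 0.0531 under ICI and 0.0890 under RI), and that under RI also when the 6 RI libraries were fitted alone (0.104).

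Sprr2e (chr3:92352143-92353449, plus strand) was at 5.71, 2.31 and 0.832 CPM in KD ICI tumours, against 0, 0 and 0.0848 CPM in WT ICI tumours. In KD RI tumours it was at 0.0554, 0.572 and 0.104 CPM, against 0.0883, 0.0519 and 0 CPM in WT RI tumours, and the groups overlapped. The ratio under ICI was 94.9 (counting interval 25.8 to 791, adjusted p = 0.00153) and under RI 5.19 (1.45 to 28.2, adjusted p = 0.262). Under RI it passed with the name as a term in the fit (log2 3.40, adjusted p = 0.0167). Its change under RI was 3.43 in the JIAN libraries alone and 3.44 without the SG793 libraries. In both of these fits KD RI 2 is the only KD RI library, and without KD RI 2 the change under RI was 0.69. The log2 change under ICI, 6.40 ± 1.12, was 5.53 without KD ICI 1 and 5.82 without WT ICI 2. It was 8.85 without WT ICI 3, which left no WT ICI read.

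Sprr2h (chr3:92385685-92387324, plus strand) was at 2.58, 0.769 and 1.09 CPM in KD ICI tumours, against 0.0916, 0 and 0 CPM in WT ICI tumours. The KD RI tumours had 0.499, 0.416 and 0.312 CPM, against 0.0883, 0.0519 and 0 CPM in WT RI tumours. The genotypes did not overlap under either treatment. The ratio was 47.8 under ICI (12.8 to 402, adjusted p = 0.000881) and 8.53 under RI (2.58 to 44.4, adjusted p = 0.0364). The call under RI was lost without any of the 6 RI libraries: the adjusted p was 0.0903, 0.0812 and 0.0601 without KD RI 1, 2 and 3, and 0.0606, 0.0979 and 0.118 without WT RI 1, 2 and 3. It was also lost in the JIAN libraries alone (0.0782) and without the SG793 libraries (0.113). The fitted log2 change under ICI (5.39 ± 0.86) was 4.76 without KD ICI 1 and 4.81 without WT ICI 2. It was 7.86 without WT ICI 1, which left no WT ICI read. The change under RI (2.95 ± 0.91) was 3.73 without WT RI 1.

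Sprr2i was at 2.38, 1.18 and 0.156 CPM in KD ICI tumours and at 0, 1.35 and 0 CPM in KD RI tumours, with no read in any WT tumour. It did not pass under ICI (0.0636 after adjustment) or RI (0.200), but passed under ICI when KD RI 2 was left out (0.0202). With the name as a term in the fit it passed under ICI (0.000855) and RI (0.00319). The fitted log2 change under ICI and RI was 8.60 and 7.79 in the JIAN libraries alone, and 8.21 and 7.84 without the SG793 libraries. No WT read lies behind these sizes. In both of these fits KD RI 2 is the only KD RI library, and it holds all KD RI reads of Sprr2i. Below the filter on low counts, Sprr2g had 55 counts, 92.7% of them in KD libraries, and Sprr2d had 53, 96.2% of them in KD libraries. All 16 counts of Sprr2j-ps, annotated in the files as protein coding, were in KD libraries. Sprr2f had 10 counts, 6 of them in KD libraries. Sprr2d passed under ICI in 8 and Sprr2g in 7 of 12 fits that left out 1 library, in which more genes passed the filter. KD libraries alone carried both past the filter there, so they had to differ, and these fits are not read as support.

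**Figure D2:**
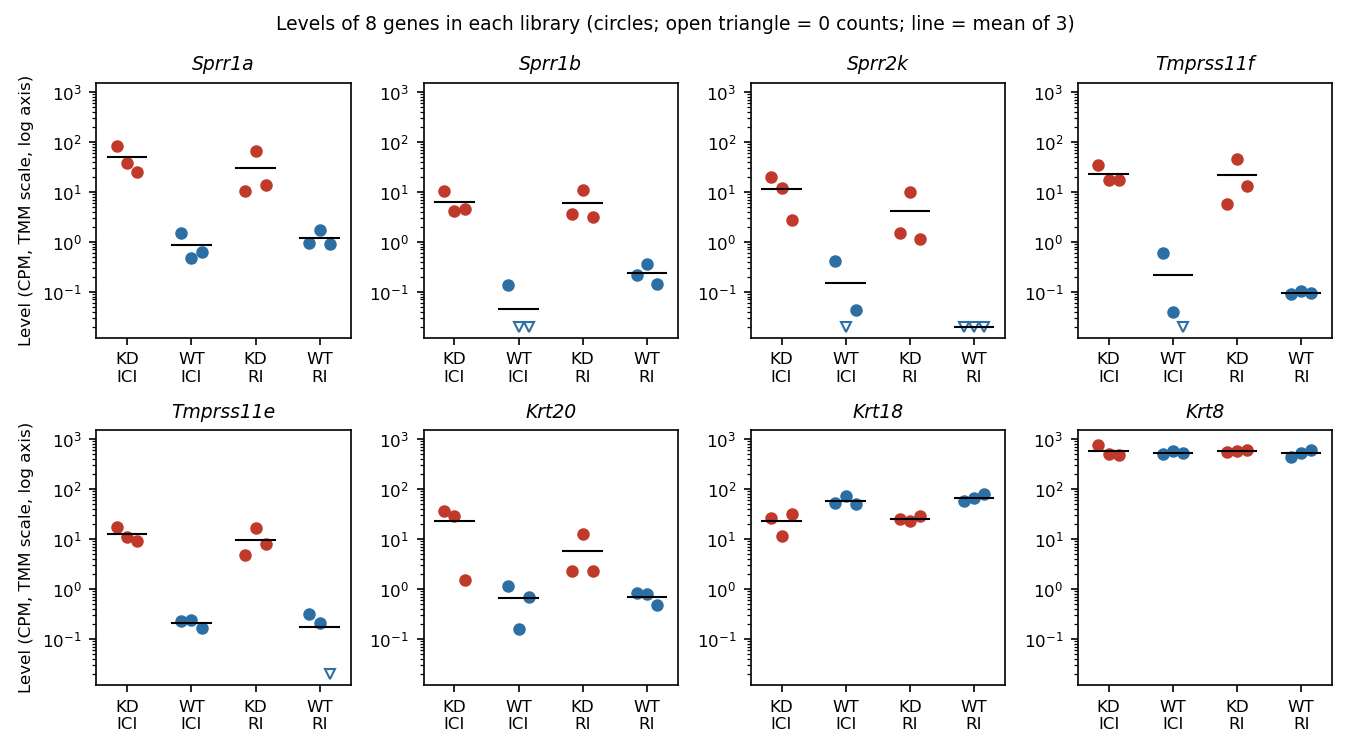
Level in CPM (log axis) of 8 genes in each of the 12 libraries, with a circle for a library, an open triangle for a library with 0 counts and a line for the mean of 3. For Sprr1a, Sprr1b, Sprr2k, Tmprss11f and Tmprss11e each KD library lies above each WT library, Krt20 is high in 3 KD libraries, Krt18 is lower in KD, and Krt8 is alike in all groups.

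The bases before the start of a gene were read for the genes above, because 8 of the 8 Sprr genes with an entry in the RefSeq promoter table (GRCm38.p6) share an AP-1 motif, the binding site of Fos and Jun factors known from Sprr promoters. The 250 bases upstream are given 5′ to 3′, with matches to AP-1 (TGANTCA), to the CREB core (TGACG) and to the TATA box (TATAAA) in capitals. The 3 most abundant Sprr genes are shown, with the 4 genes outside the Sprr family that were called higher in KD tumours and have an entry. Tmprss11e has none, and Tmprss11b and Tmprss11g hold no match.
Sprr1a, chr3:92485882-92486131, minus strand: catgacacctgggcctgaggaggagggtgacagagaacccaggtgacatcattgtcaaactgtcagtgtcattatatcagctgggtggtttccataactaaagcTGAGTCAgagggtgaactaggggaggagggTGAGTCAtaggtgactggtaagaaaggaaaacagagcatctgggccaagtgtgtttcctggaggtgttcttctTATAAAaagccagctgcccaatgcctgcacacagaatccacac
Sprr1b, chr3:92438780-92439029, minus strand: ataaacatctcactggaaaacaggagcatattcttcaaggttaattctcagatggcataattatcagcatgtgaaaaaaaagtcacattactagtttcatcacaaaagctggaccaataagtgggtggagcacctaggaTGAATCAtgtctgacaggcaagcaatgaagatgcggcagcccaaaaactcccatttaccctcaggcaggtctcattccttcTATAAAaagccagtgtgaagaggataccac
Sprr2k, chr3:92432332-92432581, plus strand: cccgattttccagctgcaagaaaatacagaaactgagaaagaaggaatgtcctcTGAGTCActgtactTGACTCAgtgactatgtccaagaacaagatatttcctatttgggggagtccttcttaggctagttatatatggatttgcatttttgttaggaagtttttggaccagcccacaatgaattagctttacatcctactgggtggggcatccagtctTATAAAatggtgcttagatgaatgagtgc
Tmprss11f, chr5:86632425-86632674, minus strand: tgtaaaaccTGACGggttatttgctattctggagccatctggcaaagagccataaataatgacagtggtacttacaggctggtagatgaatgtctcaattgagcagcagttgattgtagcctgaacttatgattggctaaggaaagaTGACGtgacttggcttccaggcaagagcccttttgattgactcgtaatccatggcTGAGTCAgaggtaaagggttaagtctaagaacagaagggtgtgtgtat
Tmprss11b, chr5:86676299-86676548, minus strand: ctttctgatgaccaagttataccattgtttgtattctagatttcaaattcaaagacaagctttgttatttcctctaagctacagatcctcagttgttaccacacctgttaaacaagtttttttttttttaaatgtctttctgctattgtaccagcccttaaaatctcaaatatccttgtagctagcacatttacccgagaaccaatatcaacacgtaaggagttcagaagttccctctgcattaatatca
Tmprss11g, chr5:86518601-86518850, minus strand: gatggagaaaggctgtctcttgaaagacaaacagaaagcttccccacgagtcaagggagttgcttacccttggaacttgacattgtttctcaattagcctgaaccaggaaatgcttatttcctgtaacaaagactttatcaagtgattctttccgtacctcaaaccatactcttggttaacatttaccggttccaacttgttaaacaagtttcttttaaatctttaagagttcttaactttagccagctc
Krt20, chr11:99438154-99438403, minus strand: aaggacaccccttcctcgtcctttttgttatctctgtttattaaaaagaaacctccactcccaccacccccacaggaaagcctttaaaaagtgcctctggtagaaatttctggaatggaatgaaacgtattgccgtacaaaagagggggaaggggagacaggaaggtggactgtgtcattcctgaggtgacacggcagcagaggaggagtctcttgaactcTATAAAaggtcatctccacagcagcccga

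Of the 38 genes 24 had an entry, and both strands were searched. AP-1 was found before 10 of the 24, where 6.75% of 32851 promoters of that length held it: the 8 Sprr genes, Lor and Tmprss11f. The sites began at -146 and -116 from the start in Sprr1a, at -111 in Sprr1b, at -196 and -182 in Sprr2k and at -48 in Tmprss11f. In Sprr2d, Sprr2e and Sprr2i the site began at -193. TATAAA was found before 13 of 24 genes, against 12.4% of promoters, and before all 8 Sprr genes. In each of the 6 Sprr2 genes it began at -29. The CREB core was found before 4 of 24 genes (17.8% of promoters) and a KLF motif, CACCC, before 13 of 24 (52.0%). Sprr genes are copies of a common ancestor, so their upstream bases are not independent, and a match is no evidence that a factor binds.

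Sequence shared between copies limits how reads can be assigned. Of the windows of 100 bases in the Sprr2e transcript 1.09% were also found in Sprr2i, and of those in Sprr2i 1.16% in Sprr2e. No window of Sprr1a, Sprr1b, Sprr2k, Sprr2h or any Tmprss11 gene was found in another gene. The first 90 coding bases show how close the copies are, with bases that differ from Sprr2e in capitals.
Sprr2e: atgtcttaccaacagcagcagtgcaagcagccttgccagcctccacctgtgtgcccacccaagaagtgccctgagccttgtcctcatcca
Sprr2i: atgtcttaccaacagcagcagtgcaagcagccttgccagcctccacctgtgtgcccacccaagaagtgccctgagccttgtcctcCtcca
Sprr2h: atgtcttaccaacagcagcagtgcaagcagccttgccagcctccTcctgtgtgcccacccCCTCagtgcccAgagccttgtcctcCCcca
Sprr2i differed from Sprr2e at 1 of these 90 bases, Sprr2d, not shown, at 3 and Sprr2h at 8. Reads that fall in the bases shared by Sprr2e and Sprr2i are uncertain between them, since the sources used here do not give how reads with several matches were assigned. By the windows of 100 bases this concerns a small part of each transcript, 1.09% and 1.16%.

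Tmprss11 genes form a cluster on chromosome 5, and 5 of 7 were among the 38. Their summed level was 60.6, 34.3 and 32.9 CPM in KD ICI tumours, against 0.961, 0.279 and 0.170 CPM in WT ICI tumours. Under RI the level was 11.9, 73.4 and 24 CPM in KD tumours, against 0.397, 0.311 and 0.143 CPM in WT tumours. The genotypes did not overlap.

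Tmprss11f (chr5:86521898-86632424, minus strand) was the most abundant of them. It was at 34.2, 17.5 and 17.3 CPM in KD ICI tumours, against 0.595, 0.0399 and 0 CPM in WT ICI tumours. In KD RI tumours it was at 5.65, 45.2 and 12.8 CPM, against 0.0883, 0.104 and 0.0952 CPM in WT RI tumours. The level was 110-fold higher in KD under ICI (log2 6.79 ± 1.03, adjusted p = 0.00106) and 226-fold higher under RI (7.71 ± 1.15, adjusted p = 0.000904), the WT group holding 14 and 6 reads. WT ICI 1 holds most of those 14, and without it the fitted log2 change was 9.71, and without WT ICI 3 it was 6.16. Without KD RI 2 that under RI was 6.51.

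Tmprss11e (chr5:86705186-86745815, minus strand), known in humans as DESC1, was at 17.1, 11.1 and 9.25 CPM in KD ICI tumours, against 0.229, 0.239 and 0.170 CPM in WT ICI tumours. The KD RI tumours had 4.82, 16.3 and 7.94 CPM, against 0.309, 0.207 and 0 CPM in WT RI tumours. The level was 56.5-fold higher in KD under ICI (log2 5.83 ± 0.63, adjusted p = 0.000104) and 56.1-fold higher under RI (5.75 ± 0.65, adjusted p = 8.56e-05). The log2 change under RI was 5.15 without KD RI 2 or without WT RI 3, and 6.50 without WT RI 1.

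Tmprss11b was at 4.49, 3.48 and 4.21 CPM in KD ICI tumours, against 0.137, 0 and 0 CPM in WT ICI tumours, a ratio of 93.9 (counting interval 31.7 to 459, adjusted p = 0.00262). The KD RI tumours had 0.720, 7.64 and 2.34 CPM with no read in WT RI tumours, at least 76.1-fold higher (adjusted p = 0.00233, and 0.0713 when the 6 RI libraries were fitted alone). Tmprss11g had no read in any WT tumour, and its levels were 4.42, 1.81 and 0.936 CPM in KD ICI and 0.499, 2.65 and 0.623 CPM in KD RI tumours. It was at least 51.6-fold higher under ICI (adjusted p = 0.00469) and at least 26.7-fold higher under RI (adjusted p = 0.0131). The fitted log2 change of Tmprss11b under ICI, 6.37 ± 1.11, was 9.34 without WT ICI 1 and 5.76 without WT ICI 2, and under RI, 9.20 ± 1.54, it was 7.99 without KD RI 2. That of Tmprss11g was 8.60 ± 1.53 under ICI and 7.86 without KD ICI 1, and 7.70 ± 1.66 under RI and 6.55 without KD RI 2. No WT read lay behind the fitted changes of Tmprss11g, of Tmprss11b under RI or of Tmprss11b without WT ICI 1, so their sizes are uncertain. Tmprss11a was below the filter, with 79 of its 80 counts, 98.8%, in KD libraries. It passed in 10 of 12 fits under ICI and in 8 of 12 under RI that left out 1 library, in which it entered the test. KD libraries alone carried it past the filter there, so it had to differ, and these fits are not read as support.

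**Figure D3:**
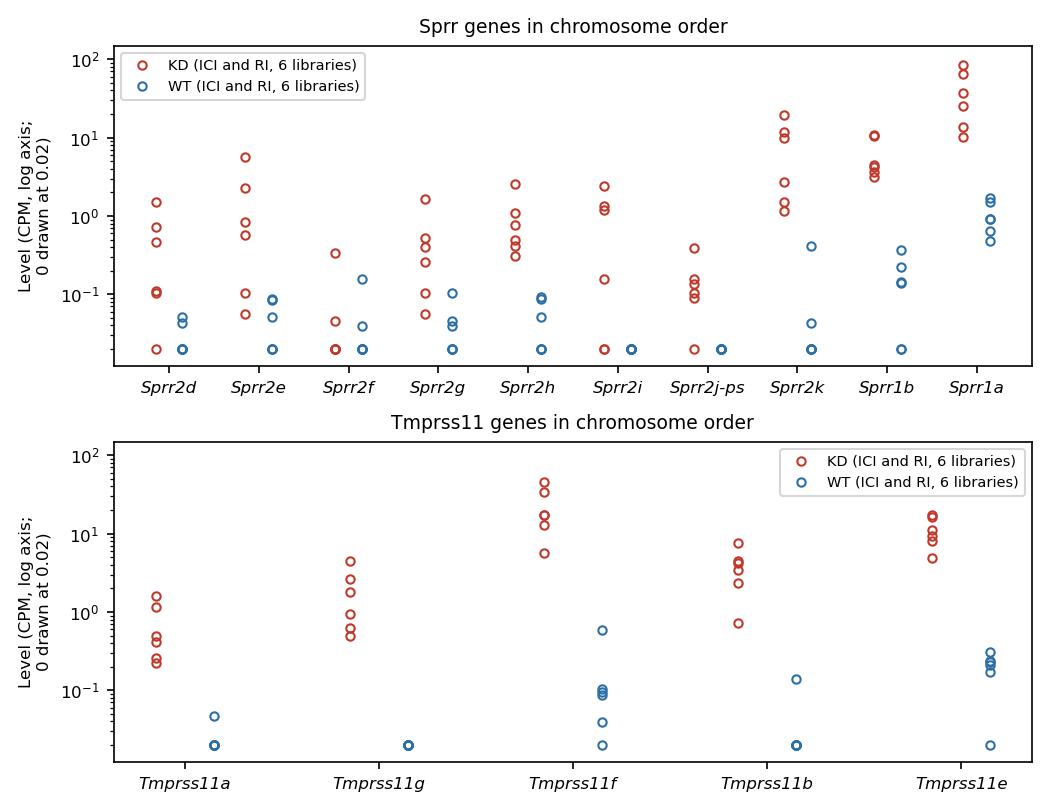
Level in CPM (log axis, 0 drawn at 0.02) of the Sprr genes (top) and the Tmprss11 genes (bottom) in the order in which they lie on chromosomes 3 and 5, with KD libraries in red on the left of each gene and WT libraries in blue on the right (6 each, ICI and RI together). KD circles lie above the WT circles for Sprr1a, Sprr1b, Sprr2k, Sprr2h and all 5 Tmprss11 genes, and Sprr2f, near 0 in both genotypes, lies between Sprr2e and Sprr2g.

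Genes beside the Tmprss11 cluster were also higher in KD tumours. Gm43057, an RNA of the same strand that starts at chr5:86767141, past Tmprss11e, averaged 5.73 CPM in KD ICI and 0.169 CPM in WT ICI tumours (log2 5.02 ± 0.73, adjusted p = 0.000569). Under RI it averaged 3.68 CPM in KD and 0.154 CPM in WT tumours (4.50 ± 0.75, adjusted p = 0.00121). Gm43055 and Gm16579, on the opposite strand across the start of Tmprss11e, rose too, with adjusted p of 0.0109 and 0.00413 under ICI and 0.0103 and 0.0107 under RI. Their exons do not overlap those of Tmprss11e. The nearest protein-coding genes changed less: Uba6, a ubiquitin-activating enzyme, by 0.28 ± 0.10 under ICI and 0.57 ± 0.10 under RI, and Ythdc1, a reader of methylated RNA, by 1.11 ± 0.21 and 0.74 ± 0.21 on the log2 scale. The Sprr block lies at chr3:92215799-92500493, and the nearest tested gene before it was S100a9, a calcium-binding protein of neutrophils. S100a9 lies well outside the block, at chr3:90692632-90695721. It was higher in KD under ICI (3.00 ± 0.64, adjusted p = 0.00691) and not under RI (-0.08 ± 0.60, adjusted p = 0.943). Inside the block Gm9774, which ends just before Sprr2k, did not pass (0.25 ± 0.28, adjusted p = 0.522 under ICI, and 0.19 ± 0.28, adjusted p = 0.681 under RI). Past the block Gm4202, the nearest tested gene, was higher under ICI (0.59 ± 0.18, adjusted p = 0.0260) and did not pass under RI (0.18 ± 0.18, adjusted p = 0.523). S100a11, a calcium-binding protein, was the nearest tested protein-coding gene there, also well outside the block at chr3:93520488-93526287. It did not pass under ICI (-0.25 ± 0.12, adjusted p = 0.140) and was narrowly called lower under RI (-0.36 ± 0.12, adjusted p = 0.04998).

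Simple epithelial keratins moved in different directions. Krt20 (chr11:99428403-99438150, minus strand), a keratin of gut lining and bladder surface cells, was at 37.0, 28.9 and 1.51 CPM in KD ICI tumours, against 1.14, 0.160 and 0.679 CPM in WT ICI tumours. Under RI the level was 2.27, 12.9 and 2.28 CPM in KD tumours, against 0.839, 0.778 and 0.476 CPM in WT tumours. Every KD library was above every WT library, with KD ICI 3, KD RI 1 and KD RI 3 only a little above the WT values. Under ICI the level was 33.9-fold higher in KD (log2 5.10 ± 1.21, adjusted p = 0.0105). Without KD ICI 3 the change was 5.65 (adjusted p = 0.00176), and without WT ICI 1 it was 5.69. Under RI it was 8.42-fold higher and did not pass (3.05 ± 1.16, adjusted p = 0.0938), though it did when KD ICI 3 was left out of the shared fit (0.0321), with DESeq2 (0.0296), when the 6 RI libraries were fitted alone (0.0476) and with the name as a term (0.000457). In the JIAN libraries alone, and without the SG793 libraries, the log2 change under RI was 4.20. In both of these fits KD RI 2 is the only KD RI library. Without KD RI 2, the KD RI library with the most Krt20, the change was 1.70.

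Krt8 (chr15:101996711-102004342, minus strand), the type II keratin of simple epithelia, was at 755, 503 and 478 CPM in KD ICI tumours, against 496, 584 and 520 CPM in WT ICI tumours. In KD RI tumours it was at 540, 580 and 613 CPM, against 441, 528 and 592 CPM in WT RI tumours. The genotypes overlapped under both treatments (log2 0.12 ± 0.17, adjusted p = 0.628, and 0.15 ± 0.17, adjusted p = 0.591). Of its windows of 100 bases 16.9% were also found in the pseudogene Krt8-ps, which has 180 counts beside 134467 of Krt8.

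Krt18 (chr15:102028216-102032026, plus strand), the type I partner of Krt8, fell. It was at 26.2, 11.3 and 32.1 CPM in KD ICI tumours, against 51.7, 71.5 and 49.3 CPM in WT ICI tumours. The KD RI tumours had 25.6, 22.7 and 28.9 CPM, against 56.9, 66.9 and 78.4 CPM in WT RI tumours. All 6 KD libraries were below all 6 WT libraries. The KD level was 0.386 of the WT level under ICI (log2 -1.31 ± 0.30, adjusted p = 0.00720) and 0.383 of it under RI (-1.39 ± 0.30, adjusted p = 0.00640). The call under RI was lost when the KD ICI 3, KD RI 1 and KD RI 3 libraries were left out together (-1.57, adjusted p = 0.0831).

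Read per length and within a library, Krt18 was 2.90% to 8.67% of the Krt8 FPKM in the 6 KD libraries and 12.2% to 17.1% of it in the 6 WT libraries. Sprr1a was 4.23% to 25% of Krt8 in KD and 0.183% to 0.726% in WT libraries. These ratios need no scaling between libraries, and the genotypes did not overlap in either.

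Krt80, a type II keratin of differentiating epithelia, was at 2.18, 1.22 and 7.28 CPM in KD ICI tumours, against 6.50, 7.86 and 4.92 CPM in WT ICI tumours. Under RI the level was 4.76, 3.01 and 3.74 CPM in KD tumours, against 7.68, 6.48 and 8.71 CPM in WT tumours. Only KD ICI 3 reached the WT values. With all libraries it did not pass (-0.85 ± 0.49, adjusted p = 0.204 under ICI, and -0.99 ± 0.49, adjusted p = 0.176 under RI). Without KD ICI 3 it was lower in KD under both (-1.95, adjusted p = 0.000283, and -0.99, adjusted p = 0.00918). With the name in the descriptions as a term in the fit it passed too (-1.81, adjusted p = 0.00117, and -1.75, adjusted p = 0.00246). Krt7, a keratin of ducts and lung lining, was at 0.612, 0.407 and 0.156 CPM in KD ICI tumours, against 0.137, 0.997 and 0.170 CPM in WT ICI tumours, and at 0.111, 0.416 and 0.0519 CPM in KD RI tumours, against 0.265, 0.259 and 1.29 CPM in WT RI tumours. It did not pass (adjusted p = 0.885 and 0.280). Its highest values were in WT RI 3 and WT ICI 2, the libraries with the most muscle RNA, whose part was not tested. Krt8, Krt80 and Krt7 overlap exons of a gene on the opposite strand, and the sources used here do not give whether reads were counted by strand.

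**Figure D4:**
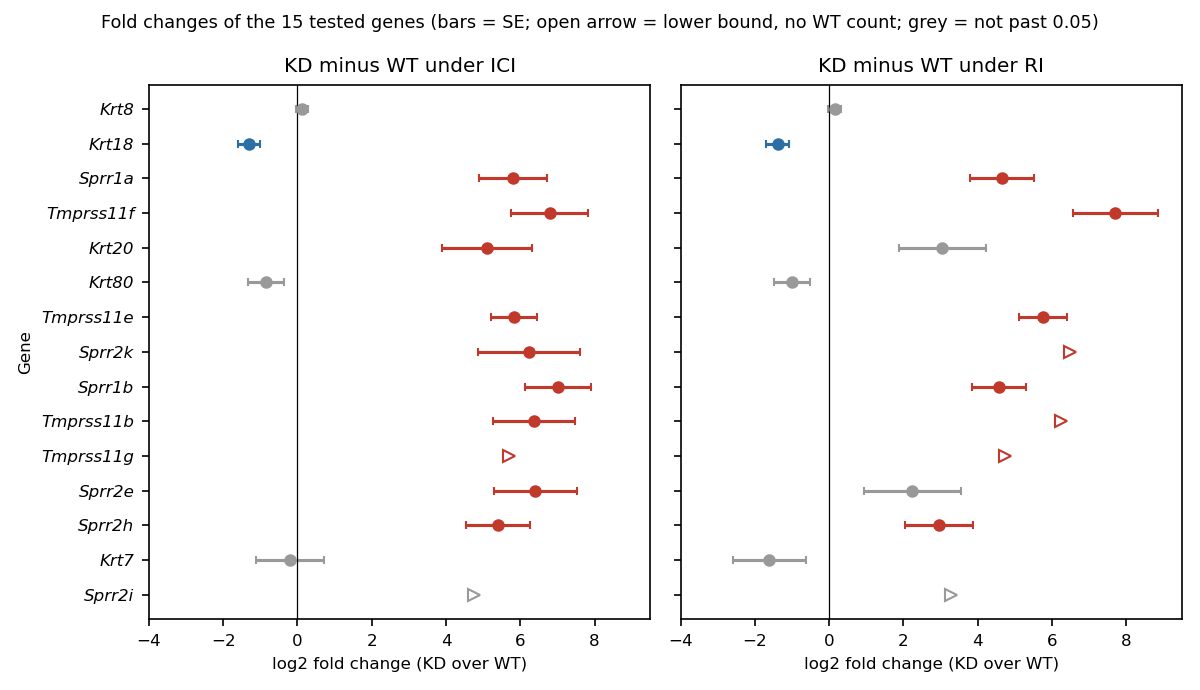
Log2 fold change of KD over WT under ICI (left) and RI (right) for the 15 genes that could be tested, with the SE as a bar, red for higher and blue for lower at an adjusted p under 0.05, and grey otherwise. An open arrow is a lower bound where no WT read was counted. Krt18 lies below 0 and the Sprr and Tmprss11 genes to the right, while Krt8 is at 0.12 and 0.15.

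Keratins of stratified epithelium gave few reads, and most of those came from 1 WT tumour. WT RI 2 held 82 of 100 counts of Krt14, 40 of 53 of its basal partner Krt5, 35 of 40 of the suprabasal Krt1, 23 of 25 of Krt16 and 19 of 20 of Krt17. Krt16 and Krt17 are keratins of injured skin and hair follicles. It also held 10 of 12 counts of Krt6a and 8 of 12 of Lor, the main envelope protein of skin. The 8 markers of skin between hair follicles summed to 7.42 CPM in WT RI 2, and to 7.02 and 8.95 CPM in the other WT RI tumours. Of them Krtdap, Flg and Casp14 had reads in WT RI 2 alone (5, 1 and 1). Sbsn was at 6.28 CPM there, with 6.36 and 7.14 CPM in WT RI 1 and WT RI 3, and Cdsn at 0.778 CPM, with 0.662 and 1.81 CPM. The next highest values of Krt14 and Krt5 were in KD RI 1, at 0.776 and 0.388 CPM.

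These genes were below the filter on low counts. Krt76, a keratin of the palate, had 40 counts, of which 5.00% were in KD libraries, and 15 were in WT ICI 2. It was called lower in KD under ICI in 4 of 12 fits that left out 1 library. WT libraries alone carried it past the filter there, so these fits are not read as support. Dsc3, a desmosomal cadherin, had 18 of 29 counts in WT ICI 2, and Pkp1, a desmosomal plaque protein, had 11 of 18 in KD ICI 3. Krt222 had 38 counts spread over the libraries, Krt19 had 34 with 15 in WT RI 3, and Krt23 had 26. The part of skin, muscle, mesothelium or fat carried into a tumour sample in any of these values was not tested. Of the windows of 100 bases, 34.0% of those in Krt6a and 24.3% of those in Krt16 were also found in other genes, so reads of these genes are uncertain.

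Within the KD tumours some levels split along the names in the sample descriptions. Sprr1a, Sprr2k, Sprr2i, Tmprss11f, Tmprss11e, Tmprss11g, Krt20 and Krt7 were lower in all 3 SG793 libraries than in the other 3 KD libraries. Krt80 was higher in them, and Krt8, Krt18, Sprr1b, Sprr2e, Sprr2h and Tmprss11b overlapped. How often all genes tested split this way was not counted, so the split is not read as particular to these genes. In the SG793 libraries Sprr2 genes summed to 1.82 to 5.10 CPM, while those of KD ICI 1, KD ICI 2 and KD RI 2 summed to 13.5 to 34.0 CPM. Krt20 was at 1.51 to 2.28 CPM in the SG793 libraries and 12.9 to 37.0 CPM in the others. Tmprss11f was at 5.65 to 17.3 CPM and 17.5 to 45.2 CPM, narrowly apart. Among those that overlapped, Krt18 was at 25.6 to 32.1 CPM in the SG793 libraries and 11.3 to 26.2 CPM in the others, Sprr1b at 3.12 to 4.42 CPM and 4.21 to 10.8 CPM, and Tmprss11b at 0.720 to 4.21 CPM and 3.48 to 7.64 CPM. No WT library is called SG793, and in that set the name and the genotype cannot be told apart. Within the name JIAN 3 of the 4 groups hold 1 library, taken to vary like the WT RI libraries. In that fit 26 of the 38 genes could be tested, in place of 15. There 13 were higher in KD under ICI, where 2459 of all 17548 genes tested were, and 12 under RI, where 1784 were (10.2%), with Sprr1a at a log2 change of 7.43 and 5.79. Krt18 there was at -1.45 and -1.57 (adjusted p = 0.00358 and 0.00185). With the name as a term in the fit 11 of the 15 were higher under each treatment, where 20.9% of genes tested were under ICI and 14.3% under RI.

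Radiation added to the inhibitor changed none of the 15 genes at an adjusted p under 0.05. In WT tumours 0.283% of all genes tested passed for RI against ICI (0.156% higher and 0.126% lower) and 0 of the 15 did, with 0 at an unadjusted p under 0.05 and 0 by DESeq2. In KD tumours 0.0843% of genes passed and 0 of the 15, with 2 at an unadjusted p under 0.05 (Sprr2e and Sprr2h) and 1 by DESeq2 (Sprr2e). Sprr2e averaged 0.244 ± 0.285 CPM in KD RI and 2.95 ± 2.5 CPM in KD ICI tumours (SD, n = 3 each), a log2 change of -3.53 ± 0.86 with an adjusted p of 0.122. With KD ICI 1 and KD ICI 2 summed it was -3.19 (adjusted p = 0.231). Sprr2h averaged 0.409 ± 0.0937 CPM in KD RI and 1.48 ± 0.968 CPM in KD ICI tumours (-1.82 ± 0.62, adjusted p = 0.236). Krt20 averaged 5.82 ± 6.13 CPM in KD RI and 22.5 ± 18.6 CPM in KD ICI tumours (-1.94 ± 1.00, adjusted p = 0.395). Without KD ICI 3, Sprr2e was lower in RI (-3.98, adjusted p = 0.005) and Krt80 higher (1.20, adjusted p = 0.0183, and 0.11, adjusted p = 0.938 with it). Sprr2h (-1.99, adjusted p = 0.0529) and Krt20 (-2.49, adjusted p = 0.0622) did not pass without it. Of the KD tumours, 2 of 3 KD RI libraries but 1 of 3 KD ICI libraries are SG793.

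Whether the genotype difference itself changed with treatment was tested as the difference of the treatment effects. It passed for 0.367% of all genes (0.0602% higher and 0.307% lower) and for 0 of the 15, with 0 at an unadjusted p under 0.05 and 0 by DESeq2. So Krt20 and Sprr2e, which with all 12 libraries and no term for the name passed for KD against WT under ICI and not under RI, were not shown to differ between treatments (log2 -2.05 ± 1.63, adjusted p = 0.623, and -4.17 ± 2.24, adjusted p = 0.447). Within the JIAN libraries Krt20 alone passed (-3.61, adjusted p = 0.0334).

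For Sprr1a, Tmprss11f and Krt18 the 3 KD RT libraries did not show the levels of the other KD tumours. Sprr1a was at 1.57, 0.733 and 1.11 FPKM in KD RT, while it was at 12.7 to 88.1 FPKM in the 6 KD ICI and KD RI libraries and at 0.634 to 2.22 FPKM in the WT libraries. Tmprss11f was listed at 0 in each, as were Sprr2k, Tmprss11b and Tmprss11g. Krt20 was at 0.771, 0.223 and 1.03 FPKM. It was at 0.750 to 16.4 FPKM in the KD ICI and KD RI libraries and 0.0884 to 0.628 FPKM in the WT libraries, so KD RT overlapped both. As a share of Krt8 it was 0.0527% to 0.187% in KD RT. That was below the other KD libraries (0.295% to 5.37%) and within the WT range (0.0256% to 0.216%). Krt8 itself was at 423 to 622 FPKM in KD RT and 254 to 356 FPKM in all other libraries, which lowers such shares in KD RT. Krt18 was 16.3%, 18.8% and 14.2% of Krt8, outside the range of the other KD libraries and above or within that of WT. Sprr1a was 0.252%, 0.173% and 0.200% of Krt8.

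The steps of low FPKM values allowed the reads of the RT libraries to be counted back, with 90.9% to 91.7% of low genes within 0.05 of a whole read. By that scale Sprr1a had 23, 11 and 17 reads, and Tmprss11e 1, 0 and 3. Stk11 was at 11.7, 12.1 and 9.71 FPKM in KD RT, and at 11.8 to 17.5 FPKM in the 6 KD ICI and KD RI libraries and 17.6 to 21.9 FPKM in the 6 WT libraries. For this gene the KD RT libraries lay below or among the KD libraries and below every WT library. The RT table was normalized separately, no WT tumour had radiation alone, and treatment, table and genotype label cannot be told apart here, so no test was made.

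**Figure D5:**
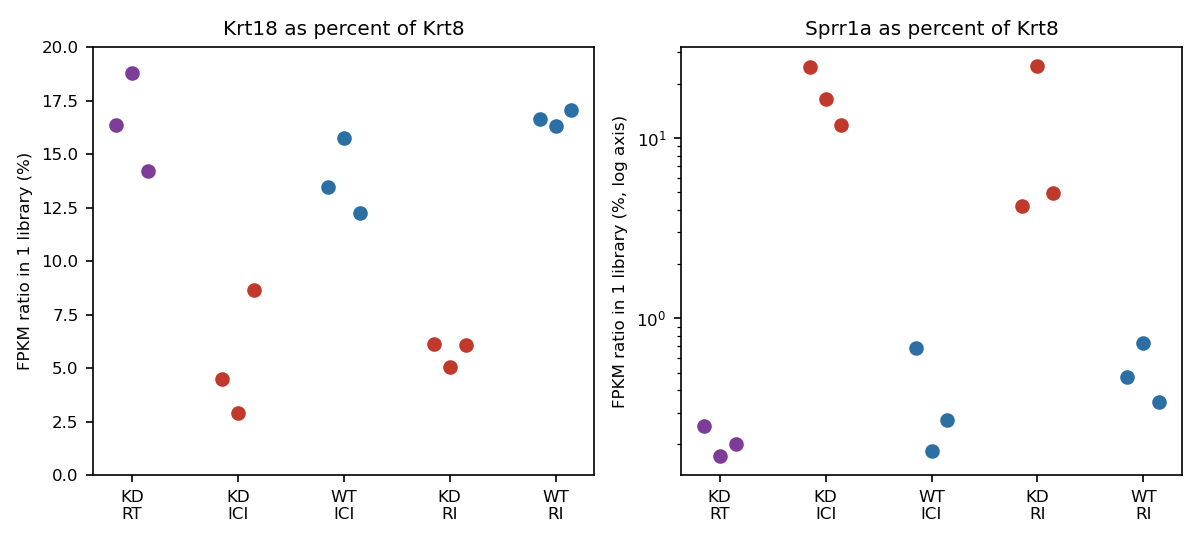
FPKM of Krt18 (left, linear axis) and Sprr1a (right, log axis) as a percentage of the FPKM of Krt8 in the same library, with a point for each of 3 libraries in 5 groups. The KD RT points lie among or beyond the WT points (Krt18 at 14.2% to 18.8%, Sprr1a at 0.173% to 0.252%) and apart from the other KD points.

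Other genes of the squamous programme were read from 4 lists. Of 34 genes of the cornified envelope and late differentiation 12 could be tested, and 4 were higher in KD under ICI (Sbsn, Lypd3, Asprv1 and Ppl) and none lower. Under RI 3 were higher (Sbsn, Lypd3 and Ppl) and 2 lower (Tgm1 and Dmkn). Of all genes tested 16.1% were higher and 14.9% lower under ICI, and 9.18% and 12.1% under RI. The median log2 change was 0.42 under ICI and 0.22 under RI, where that of all genes tested was 0.00 and 0.02. Sbsn, a secreted protein of suprabasal skin, was at 22.2, 18.4 and 14.2 CPM in KD ICI, against 5.4, 4.91 and 4.62 CPM in WT ICI tumours, and at 16.1, 17.4 and 17.3 CPM in KD RI, against 6.36, 6.28 and 7.14 CPM in WT RI tumours. The genotypes stood well apart (1.87 ± 0.17, adjusted p = 3.69e-05, and 1.36 ± 0.17, adjusted p = 0.000137). Lypd3, a membrane protein of the Ly6 family made in suprabasal skin, rose by 3.91 ± 0.60 under ICI (3.02 without KD ICI 3 and 4.53 without WT ICI 1) and 2.90 ± 0.54 under RI. Tgm1, the transglutaminase that cross-links the envelope, was lower in KD under RI (-1.57 ± 0.38, adjusted p = 0.0104), as was Dmkn, a secreted skin protein (-1.94 ± 0.53, adjusted p = 0.0201). The call of Tgm1 was lost in the JIAN libraries alone (-0.86, adjusted p = 0.173) and without the SG793 libraries (-0.86, adjusted p = 0.165), and that of Dmkn in the JIAN libraries (0.0569). The call of Dmkn was lost without WT RI 3 (0.0534), without WT RI 2 (0.0633), and without KD RI 3 (0.0833) and KD RI 2 (0.0903) in turn, which left 1 gene lower, and 2 in place of 4 were higher under ICI when KD ICI 1 or either of WT ICI 1 and WT ICI 2 was left out.

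Transcription factors of epithelia changed in both directions. Of 10 tested of 17, 8 were higher and 2 lower in KD under ICI, where 16.1% and 14.9% of all genes tested were. Under RI 5 were higher and 1 lower, where 9.18% and 12.1% were, with a median log2 change of 1.33 and 0.86. Elf3, an epithelial ETS factor, was at 49.9, 18.6 and 74.4 CPM in KD ICI, against 5.54, 2.79 and 1.78 CPM in WT ICI tumours, and at 33.6, 44.7 and 48.7 CPM in KD RI, against 4.28, 3.01 and 1.95 CPM in WT RI tumours. It rose by 3.82 ± 0.54 (adjusted p = 0.000652) and 3.77 ± 0.54 (adjusted p = 0.000681). Klf5, a Krüppel-like factor of proliferating epithelium, rose by 2.09 ± 0.24 under ICI (adjusted p = 0.000148), and Grhl2, a grainyhead factor of epithelial junction genes, by 3.53 ± 0.59 under RI (adjusted p = 0.00118). Hopx, a small homeodomain protein of differentiating epithelium, fell under ICI by 1.19 ± 0.25 (adjusted p = 0.00404), and under RI it fell by 0.93 ± 0.25 (adjusted p = 0.0168). Under RI Hopx lost its call when WT RI 1 (0.0775), KD RI 2 (0.0739) or KD RI 3 (0.0691) was left out or the name was a term in the fit (0.0713), and 3 in place of 5 were higher when KD RI 2 or either of WT RI 1 and WT RI 2 was left out.

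Zfp750, a zinc finger factor that drives late epidermal differentiation, was at 0.0680, 0.0452 and 0 CPM in KD ICI, against 1.65, 3.35 and 1.02 CPM in WT ICI tumours (log2 -5.59 ± 0.73, adjusted p = 0.000279). In KD RI it was at 0.277, 0.104 and 0.156 CPM, against 0.132, 0.207 and 0.0952 CPM in WT RI tumours, which overlapped. In WT tumours it was lower in RI than in ICI (-3.75 ± 0.58, adjusted p = 0.0232). Leaving out WT ICI 1 (0.0793), WT ICI 2 (-3.15, 0.115) or any WT RI library (0.107 to 0.124) ended that call, as did leaving out KD RI 3 (0.0526).

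Desmosome and hemidesmosome genes were called in both directions. Of 12 tested of 18, 2 were higher (Itga6 and Dst) and 3 lower in KD (Dsc2, Jup and Itgb4) under ICI, and 3 higher (Itga6, Col17a1 and Dst) and 2 lower (Dsc2 and Lama3) under RI, with a median log2 change of 0.21 and 0.16. The shares of all genes tested were 16.1% higher and 14.9% lower under ICI, and 9.18% and 12.1% under RI, and counts of 2 and 3 are not read as a difference from them. Itga6, the integrin chain that anchors epithelia to laminin, was at 481, 365 and 351 CPM in KD ICI, against 91.9, 49.8 and 91.0 CPM in WT ICI tumours (2.36 ± 0.24, adjusted p = 7.11e-05), and rose by 1.35 ± 0.23 under RI (adjusted p = 0.00143). Dsc2, a desmosomal cadherin of simple epithelia, was at 0 to 0.0680 CPM in the 6 KD libraries and 0.551 to 2.07 CPM in the 6 WT libraries, and fell by 3.94 ± 0.67 under ICI (adjusted p = 0.00125) and by 5.26 ± 0.63 under RI (adjusted p = 0.000103). Dst, a linker of hemidesmosomes, rose by 0.53 ± 0.14 under ICI (adjusted p = 0.0152). Jup, the plaque protein plakoglobin, fell by 1.23 ± 0.35 under ICI (adjusted p = 0.0179), and Col17a1, a hemidesmosomal collagen, rose by 1.39 ± 0.36 under RI (adjusted p = 0.0145). Dst lost its call when KD ICI 1, WT ICI 1 or WT ICI 3 was left out (0.0531 to 0.0657), and with it 1 of the 2 genes higher under ICI, of which there were 4 without KD ICI 3. Leaving out KD ICI 2 (0.0613) or WT ICI 2 (0.0541) ended the call of Jup, and 1 gene was lower when WT ICI 2 was left out. Under RI Col17a1 lost its call without KD RI 2 (0.0788), WT RI 1 (0.0571) or WT RI 3 (0.0567), which left 1 gene higher, and Lama3, a laminin chain (-0.42 ± 0.10, adjusted p = 0.0115), without KD RI 1 (0.0531), which left 1 lower. In the JIAN libraries alone the calls of Dsc2 (0.0532) and Jup (0.153) under ICI and of Lama3 under RI (0.166) were lost. Lama3 also lost its call without the SG793 libraries (0.130) and with the name as a term (0.0565), and under ICI Dst did so with library sizes alone as scaling (0.0729) and, like Jup (0.0605), when the 6 ICI libraries were fitted alone (0.0633 for Dst).

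Few general epithelial genes could be tested. Of 8 tested of 15, 1 was higher (St14) and 4 lower in KD under ICI (Cdh1, Spint2, Sfn and Spint1), and under RI the same 4 were lower and none higher, with a median log2 change of -0.73 and -1.34. Among all genes tested 16.1% were higher and 14.9% lower under ICI, and 9.18% and 12.1% under RI, and no test of the list against them was made. Cdh1, the cadherin of epithelial junctions, was at 0.0520 to 0.260 CPM in the 6 KD libraries and 0.549 to 1.35 CPM in the 6 WT libraries, and fell by 2.68 ± 0.55 under ICI (adjusted p = 0.00375, and by 3.66 without KD ICI 2) and by 2.51 ± 0.52 under RI (adjusted p = 0.00424). Spint1, an inhibitor of membrane serine proteases, fell by 2.82 ± 0.48 under RI (adjusted p = 0.00134), and its relative Spint2 by 1.77 ± 0.41 under ICI (adjusted p = 0.00665). Sfn, the 14-3-3 protein of stratified epithelia, fell by 1.46 ± 0.27 under RI (adjusted p = 0.00195). St14, the membrane protease matriptase that Spint proteins inhibit, rose by 1.38 ± 0.34 under ICI (adjusted p = 0.00957). In the JIAN libraries alone the calls of St14 (1.26, adjusted p = 0.0759) and Spint2 (-0.97, adjusted p = 0.260) under ICI were lost. Without KD ICI 2, 2 genes were lower under ICI, and without KD ICI 3, 3 were higher. Leaving out any single WT ICI, WT RI or KD RI library gave 2 higher.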

How the data were processed

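RNA-seq was made from total RNA of 15 tumour samples, with 3 libraries in each of 5 groups. The authors deposited whole-number counts per gene for 12 libraries and FPKM (fragments scaled to gene length and depth) for all 15, per the file headers. Alignment used HISAT2 with GRCm38 and mm10 named as builds, per the submitters' processing notes, and the sources used here do not give the counter, annotation or strand setting. No columns were unmapped. Counts were tested with edgeR 4.0.16 (R 4.3.3, limma 3.58.1) by its quasi-likelihood test, with TMM scaling, filterByExpr (minimum count 10, minimum total 15), 1 mean per group over 12 libraries and Benjamini-Hochberg adjustment over 16617 genes. CPM are TMM-scaled, and 1 count was worth 0.0399 to 0.0680 CPM. Where a group had no count, a floor of 3 counts over the group was used, and with 1 to 3 counts an exact 95% interval, which covers counting error only. A fitted log2 change with no WT read, or none left after a library was removed, has no measured WT level, so its size is uncertain. The SE beside a log2 change is the size of the change divided by the square root of the F value of its test. The FPKM of radiation-only tumours were normalized separately and are given with no test. DESeq2 1.42.0, other scalings, no filter, other sets of libraries, the name in the descriptions as a covariate, a replicate block and leaving out each library were alternatives, and the code was tested on simulated data. Promoters are from RefSeq (GRCm38.p6) and coding bases from GENCODE M21. Replicate numbers did not pair the libraries. The genes named are all that passed a comparison, the most abundant of the rest and those with the most counts below the filter, and the genes and lists were chosen with earlier results of these data known.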

Additional observations from a re-analysis of the deposited data

Results flagged for a closer look

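In the radiation-only KD tumours, which enter no comparison, 6 of the 38 genes were above the level of 3 reads in all 3 libraries. Their lowest FPKM was 78.8 for Krt18, 0.223 for Krt20, 0.0244 for Krt7, 423 for Krt8, 2.01 for Krt80 and 0.733 for Sprr1a.

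For Zfp750 the effect of RI against ICI differed between KD and WT tumours, by 5.88 on the log2 scale (adjusted p = 0.0462). The call was lost in 10 of 12 fits that left out 1 library (adjusted p 0.0115 to 0.198 over the 12), with library sizes alone as scaling (0.0546), with the replicate block (0.0551), in the JIAN libraries alone (0.149), without the SG793 libraries (0.207) and with KD ICI 1 and KD ICI 2, which share the identifier H80, summed (0.0604).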

How the results depend on the processing

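None of the called changes turned direction under the alternatives run. The count of genes lower in KD under ICI, 1, was 2 with no filter, with DESeq2 and with the name as covariate. Of all genes tested 7.77%, 13.7% and 20.9% were lower in these fits. Under RI the count of higher genes, 8, was 5 with only the groups compared, and the count of lower genes, 1, was 2 with only the groups compared, the name as covariate or the JIAN libraries alone. For RI against ICI in KD tumours DESeq2 called 1 gene in place of 0, where it called 2.42% of all genes tested lower and 0.446% higher. For the difference of treatment effects Krt20 in the JIAN libraries alone was at a log2 value of -3.61. The cause was not tested. Leaving out 1 library gave 11 to 13 higher and 1 to 3 lower under ICI, 7 to 9 higher and 1 to 2 lower under RI, 0 to 2 for RI against ICI in KD, and 0 to 0 in WT and for the difference. With a replicate block 11 genes were higher under ICI (15.2% of all genes tested), Sprr2i among them, and 8 under RI (8.77%). Same-numbered libraries correlated at -0.344 to 0.301 over 18 pairs, and 3 of 12 correlated best with their own number. Over all genes KD against WT under ICI gave 5146 calls, 7975 when the SG793 libraries were left out and 3123 when the 6 ICI libraries were fitted alone, and RI against ICI in KD gave 14, and 3324 without KD ICI 3. With only the groups compared the difference of treatment effects could not be fitted. Genes of under 10 counts in most libraries are limited by depth.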
